A study of Danio rerio with 35 samples.

Results

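Mpeg1-positive (Mpeg1+) cells of the wildtype zebrafish telencephalon were compared with the whole telencephalon of wildtype fish, both at 5 months of age. The members were chosen by their labels alone: 3 libraries of sorted wildtype Mpeg1+ cells and 5 libraries of young wildtype telencephalon, that is 8 of the 35 samples of the series. Of the 26282 genes listed in any table of the series, 21883 were listed for both groups. The Mpeg1+ cells came from the Tg(mpeg1:mCherry) line, in which the mpeg1 promoter drives a red fluorescent protein, and were sorted by flow cytometry after the telencephali of several fish had been dissociated together. The telencephalon libraries came from grna+/+;grnb+/+ siblings of the granulin mutants and were made from undissociated tissue with a different RNA extraction kit. Fish line, dissociation and sorting, amount of input RNA and extraction kit therefore changed together with the cell population and cannot be told apart from it. For orientation, wildtype Mpeg1+ cells were also set beside 4 libraries of wildtype Olig2+ cells, sorted from the telencephalon of Tg(olig2:DsRed) fish at the same age. The same contrast was also read, with no library in common, in 4 Mpeg1+ and 5 whole telencephalon libraries labelled grna-/-;grnb-/-. These libraries were also from fish at 5 months of age.

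Microglia are the resident macrophages of the brain. They derive from embryonic myeloid precursors, need the transcription factors PU.1 (spi1) and Irf8 and signalling through the receptor for colony stimulating factor 1, and are known for taking up dying cells, myelin and synaptic debris and degrading them in lysosomes. They also carry pattern recognition receptors, complement C1q and the machinery that presents peptides on MHC class II. In zebrafish mpeg1 marks microglia and other macrophages, and in adult fish mpeg1 reporters are also known to label some B cells. In such bulk libraries, fewer cells of a type and less RNA per cell cannot be told apart.

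The Mpeg1+ libraries 1, 2 and 3 held 6107892, 29077552 and 27159500 reads on genes, and the telencephalon libraries 15471586 to 29426822. Every value below is in CPM, the reads of a gene per 1000000 reads of its own library. Differences were tested on log2(CPM + 1) with limma, so the fold changes of scarce genes are smaller than their CPM ratios, and a gene was called at a Benjamini-Hochberg adjusted p of at most 0.05 together with a difference of at least 2-fold. Of 18043 genes tested, 3034 (16.8%) were called higher in Mpeg1+ cells and 5543 (30.7%) were called lower. These 2 shares are the background for every list below in this setting. Counts under other settings have their own background. Higher and lower calls over all genes were 3847 and 4088 after TMM scaling, 4350 and 2988 with edgeR, and 4547 and 3678 with DESeq2. They were 3755 and 5527 without Mpeg1+ library 2, and 1870 and 2600 with telencephalon libraries 1, 4 and 5 left out. In 2823 of the genes called higher and 5226 of those called lower, the Mpeg1+ and telencephalon libraries did not overlap. These counts were taken only within genes called from the same libraries, so they are no separate evidence. The median log2 fold change of all genes was -0.50 on this scale, -0.12 after TMM scaling and 0.09 with edgeR, so that 35.4%, 48.5% and 59.3% of the calls were on the higher side. Over 32-fold differences were found for 224 genes higher and 55 genes lower in Mpeg1+ cells. At least 10 CPM in every Mpeg1+ library together with at most 1 CPM in every telencephalon library was measured for 179 genes, and the reverse for 74 genes.

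**Figure D1:**
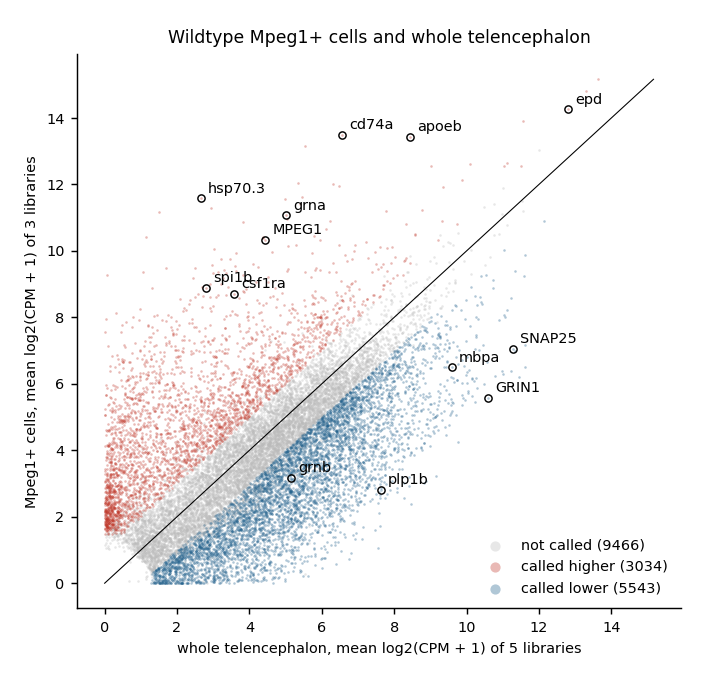
Mean log2(CPM + 1) of 3 wildtype Mpeg1+ libraries (vertical axis) against that of 5 young wildtype telencephalon libraries (horizontal axis), 1 point per tested gene, with genes called higher (3034) in red, called lower (5543) in blue and the other genes in grey. The diagonal marks equal values, and the named genes include macrophage genes far above it and neuronal and myelin genes far below it.

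Mpeg1+ library 2 stood apart from the others. Across genes, its ranks correlated with those of libraries 1 and 3 at Spearman's rho of 0.708 and 0.743, while libraries 1 and 3 correlated at 0.907 and the telencephalon libraries among themselves at 0.972 to 0.986. Summed over 12 mitochondrially encoded genes, the 3 Mpeg1+ libraries held 14859, 82959.7 and 16073 CPM and the telencephalon libraries 11302 to 14215 CPM. Library 2 was far above all others there, it held more neuronal RNA than libraries 1 and 3 and it nearly lacked the endothelial gene kdrl. It was also less complex. Its 10 most abundant genes took 26.8% of its reads, against 14.2% and 14.1% in libraries 1 and 3. Reads were found for 19875 genes in library 2, against 20954 in the shallower library 1 and 21151 in library 3. The part of this in genes missing from library 2 was not tested. Without library 2, 3755 genes were called higher and 5527 lower.

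The targeted genes were read first as a check of the labels. The granulin gene grna was at 2266, 1315 and 3332 CPM in the wildtype Mpeg1+ libraries and at 1408 to 1503 CPM in the 4 Mpeg1+ libraries labelled mutant, against 19.6 to 44.8 and 14.0 to 28.4 CPM in the corresponding telencephalon libraries. Its paralogue grnb was at 14.7, 2.24 and 13.5 CPM in the Mpeg1+ libraries labelled wildtype and at 27.19, 25.2, 24.6 and 21.6 CPM in those labelled mutant, while the wildtype and mutant telencephalon libraries held 20.9 to 45.9 and 0.620 to 1.01 CPM. Frameshift alleles can still be transcribed, so RNA from either gene does not identify a genotype. The order of the grnb values in Mpeg1+ cells went against the labels. The libraries are therefore called labelled wildtype and labelled mutant wherever the 2 are set side by side.

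All 5 markers of the population were higher in Mpeg1+ cells. The first of them is the gene whose promoter marked the cells for sorting, so its value checks the sort and is no finding. The perforin-like gene MPEG1 (ENSDARG00000055290), whose promoter drives the reporter, was at 1289.6, 892 and 1899 CPM in the Mpeg1+ libraries and at 23.5, 21.3, 14.4, 24.4 and 20.7 CPM in the telencephalon (log2 fold change 5.91 ± 0.27, adjusted p = 1.52e-06). For apoeb, a lipid-carrying apolipoprotein that zebrafish microglia express strongly, the values were 7898, 14762 and 11607 CPM against 492, 251, 347, 289 and 404 CPM (log2 fold change 4.99 ± 0.28, adjusted p = 2.89e-06). The receptor gene csf1ra reached 468, 199 and 784 CPM against 18.8, 3.73, 8.06, 16.1 and 16.2 CPM (log2 fold change 5.13 ± 0.58, adjusted p = 1.21e-04), with Mpeg1+ library 2 the lowest of the 3. The invariant chain gene cd74a, which chaperones MHC class II, was at 10438, 11205 and 13377 CPM against 92.9, 90.7, 68.2, 113 and 107 CPM (log2 fold change 6.95 ± 0.19, adjusted p = 8.01e-07). PU.1 is encoded by spi1b, with 482, 468 and 473 CPM against 6.73, 6.91, 3.17, 10.3 and 4.84 CPM (log2 fold change 6.09 ± 0.30, adjusted p = 1.91e-06). For none of the 5 did a Mpeg1+ library overlap a telencephalon library, which also held for 2823 of the 3034 genes called higher. The spi1b values were nearly equal in the 3 sorted libraries.

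The list of 33 tested microglial and macrophage identity genes had 30 members called higher and 0 called lower, with a median log2 fold change of 5.92 against -0.50 over all genes. Its summed level was 46239, 60724 and 65434 CPM in Mpeg1+ cells and 877 to 1170.3 CPM in the telencephalon. Leading it were lgals3bp.1, a secreted galectin ligand (8525, 7342 and 12548 against 30.3 to 68.4 CPM, log2 fold change 7.64), and lgals9l1, a galectin of the type that binds cell surface glycans (1621, 1594 and 2559.8 against 9.94 to 15.3 CPM, log2 fold change 7.07). The chemokine gene ccl34b.1 was at 2324, 7125 and 4448 CPM against 27.6 to 53.7 CPM, and the apolipoprotein gene apoc1 at 2123, 6599.7 and 2222 CPM against 35.3 to 54.9 CPM, both highest in library 2. The purinergic receptor gene p2ry12, a marker of resting microglia in mammals, was called higher at low levels, at 19.97, 62.5 and 37.3 CPM against 0 to 0.284 CPM (log2 fold change 5.07). The 3 members not called were aif1l, the perforin-like gene mpeg1.2 and MFAP4 (ENSDARG00000038683), named here after their values were seen: aif1l was at 124, 58.6 and 194 CPM against 87.4 to 109 CPM. Another 3 members, P2RY13, tyrobp and MPEG1 (ENSDARG00000078569), were too scarce to be tested.

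**Figure D2:**
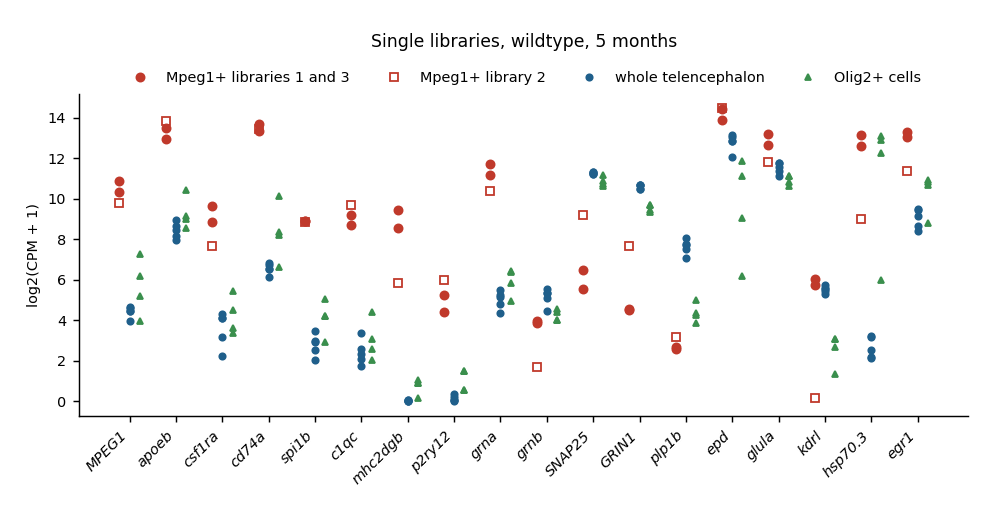
log2(CPM + 1) of 18 genes in single wildtype libraries at 5 months: 3 Mpeg1+ libraries in red (library 2 as open squares), 5 whole telencephalon libraries in blue and 4 Olig2+ libraries in green. The macrophage genes on the left separate Mpeg1+ cells from both other groups, library 2 lies apart from libraries 1 and 3 for SNAP25, GRIN1, kdrl and hsp70.3, and 3 of the 4 Olig2+ libraries reach the Mpeg1+ level for hsp70.3.

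Among 31 myeloid transcription factors, 16 were called higher and 3 lower (median 1.45). The largest difference belonged to IRF8, the interferon regulatory factor on which microglia depend, with 298, 417 and 416 CPM against 3.77, 3.304, 2.58, 3.68 and 2.99 CPM (log2 fold change 6.46 ± 0.20, adjusted p = 8.01e-07). The other PU.1 gene, spi1a, was at 838, 451 and 1129.7 CPM against 6.82 to 14.1 CPM (log2 fold change 5.95). Factors of the C/EBP family, which drive myeloid genes, followed: cebpb was at 787, 312 and 1090.0 CPM against 4.69 to 15.3 CPM (log2 fold change 5.97). CEBPA was at 1201, 642 and 1843 CPM against 26.8 to 42.1 CPM (log2 fold change 5.07). The clock-related factor BHLHE40 was at 804, 311 and 922 CPM against 250.3 to 295 CPM (log2 fold change 1.18). It fell under the 2-fold limit without library 1 (0.98) or library 3 (0.88). Of the 3 members called lower, MEF2A is a factor also used in neurons. It was named after its values were seen and was at 41.6, 135 and 89.4 CPM against 155 to 223 CPM (log2 fold change -1.25). It fell under the 2-fold limit without library 1 (-0.79), after TMM, quantile and median-of-ratios scaling (-0.80, -0.86 and -0.81) and with DESeq2 and edgeR (-0.59 and -0.53), and lost its call with telencephalon libraries 1, 4 and 5 left out. SALL1, which marks microglia in mice and is also expressed by other brain cells, was not called (58.8, 10.1 and 28.6 against 33.0 to 65.8 CPM, adjusted p = 0.208), and was likewise named after its values were seen. Without library 1 it was called lower (log2 fold change -1.35).

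Receptors for colony stimulating factors and cytokines were called higher for 21 of 25 members and lower for 0 (median 2.26). The other zebrafish CSF1 receptor, csf1rb, was at 503, 429.7 and 516 CPM against 6.93, 6.31, 3.22, 6.20 and 5.36 CPM (log2 fold change 6.22 ± 0.23, adjusted p = 9.19e-07). The shared beta chain of the receptors for IL-3, IL-5 and GM-CSF in mammals, csf2rb, was at 137, 50.5 and 166 CPM against 0.430 to 1.81 CPM (log2 fold change 5.57), and the common gamma chain il2rga at 121, 69.8 and 142 CPM against 0.806 to 2.31 CPM (log2 fold change 5.47). The IL-10 receptor chain il10rb (1.1 on the log2 scale) and the TNF receptor tnfrsf1a (2.24) differed less, and both were above 10 CPM in every telencephalon library. Without library 3, il10rb fell under the 2-fold limit (0.94).

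Secreted cytokines and growth factors had 11 of 24 members called higher and 1 lower (median 1.07). The inflammatory cytokine il1b was at 251, 30.7 and 196 CPM in Mpeg1+ cells and at 0.136, 0.120, 0.107, 0.776 and 0.284 CPM in the telencephalon (log2 fold change 6.53 ± 0.63, adjusted p = 4.96e-05). Next came tnfb, a TNF gene, with 120.5, 68.5 and 145 CPM against 0.272, 0.120, 0.0537, 0.905 and 0.237 CPM (log2 fold change 6.38 ± 0.32, adjusted p = 1.87e-06). Library 2 was lowest for both, but the groups stayed far apart. The platelet-derived growth factor gene pdgfba was at 276, 209 and 159 CPM against 3.79 to 5.75 CPM (log2 fold change 5.24). The single member called lower was igf2a, an insulin-like growth factor, at 10.3, 11.7 and 20.07 CPM against 36.9 to 66.2 CPM (log2 fold change -1.85), while its paralogue igf2b was called higher at 324, 205 and 264 CPM against 53.7 to 153 CPM (log2 fold change 1.41).

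Chemokine ligands and receptors had 17 of 29 members called higher and 2 called lower (median 2.04). The ligand ccl19a.1 was at 419, 389.6 and 629 CPM against 1.09, 2.103, 1.02, 1.75 and 1.71 CPM (log2 fold change 7.55 ± 0.25, adjusted p = 8.01e-07). CXCR4, the receptor for CXCL12 that guides cell migration, was at 934, 529 and 1303 CPM against 9.75, 6.61, 6.07, 9.31 and 10.2 CPM (log2 fold change 6.55 ± 0.31, adjusted p = 1.65e-06). CXCL12 itself was not called, at 455, 30.8 and 199.5 CPM against 74.0 to 89.3 CPM (adjusted p = 0.366), but without library 2, with edgeR and with DESeq2 it was called higher (log2 fold changes 1.88, 1.77 and 1.81), and without library 1 its sign turned (log2 fold change -0.036). In turn cxcl14, a chemokine of brain tissue, was called lower at 91.2, 18.98 and 41.2 CPM against 74.1 to 114 CPM (log2 fold change -1.17), a call that was lost after TMM scaling and without any 1 of 7 of the 8 libraries, where the log2 fold changes were -1.26 to -0.63. The neutrophil-attracting cxcl8a, named after its values were seen, was at 17.5, 0.516 and 9.09 CPM against 0 to 0.180 CPM and was lowest in library 2. Its call was lost without library 3 (log2 fold change 2.26).

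Pattern recognition and inflammasome genes were called higher for 26 of 31 members and lower for 0 (median 3.16). The Toll-like receptor gene tlr1 was at 144, 93.1 and 139 CPM against 2.99, 2.40, 0.913, 1.68 and 1.85 CPM (log2 fold change 5.43 ± 0.29, adjusted p = 2.43e-06). Of the inflammasome, the adaptor pycard was at 66.5, 58.2 and 114 CPM against 1.099 to 1.45 CPM (log2 fold change 5.07) and the caspase-1 homologue caspa at 54.2, 59.9 and 60.0 CPM against 0.537 to 0.952 CPM (log2 fold change 5.11). The adaptor MYD88, which most Toll-like receptors use, reached 90.2, 95.6 and 107 CPM against 6.23 to 9.91 CPM (log2 fold change 3.54), and IRAK3, an inhibitory kinase of the same pathway, 133, 44.5 and 177 CPM against 1.53 to 3.49 CPM (log2 fold change 5.06). The adaptor of cytosolic RNA sensing, mavs, stayed under the 2-fold limit (45.5, 25.4 and 42.7 against 19.8 to 22.8 CPM) and passed it without library 2 (1.04 on the log2 scale) and after TMM scaling (1.22).

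Downstream of these receptors, 25 of 35 genes of NF-kB, TNF and interferon responses were called higher and 0 lower (median 2.25). The NF-kB inhibitor nfkbiaa, itself an NF-kB target, was at 154, 69.0 and 262 CPM against 1.80, 1.26, 1.34, 1.94 and 1.71 CPM (log2 fold change 5.77 ± 0.39, adjusted p = 7.63e-06). The interferon-inducible ifi27.2 was at 17.2, 167 and 121 CPM against 0.194 to 1.495 CPM (log2 fold change 5.48), lowest in library 1. With telencephalon libraries 1, 4 and 5 left out, 16 of these genes were called higher, while higher calls over all genes fell from 3034 to 1870.

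Immunoreceptor signalling genes, which act behind Fc receptors, integrins and lectins, were called higher for 22 of 28 members and lower for 0 (median 3.97). INPP5D, the inositol phosphatase SHIP1, was at 442, 414 and 730.2 CPM against 8.84, 8.23, 6.88, 8.21 and 9.39 CPM (log2 fold change 5.79 ± 0.22, adjusted p = 9.36e-07). The signalling gamma chain fcer1gl was at 273, 578 and 382 CPM against 4.99 to 8.47 CPM (log2 fold change 5.70), and the phosphatase PTPN6 at 585, 455 and 883 CPM against 8.005 to 17.8 CPM (log2 fold change 5.46). Among broadly expressed members, CSK was at 158, 115 and 256 CPM against 157 to 175 CPM (adjusted p = 0.910), and CD81 (ENSDARG00000036080), a tetraspanin, at 1195, 419 and 877 CPM against 1320.2 to 1582 CPM, neither of them called. Without library 1 or 3 the latter was called lower (log2 fold changes -1.26 and -1.04).

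The leukocyte actin and adhesion genes had 31 of 36 members called higher and 1 lower (median 3.96). NCKAP1L, the blood cell form of a WAVE complex subunit, was at 617, 882 and 1200.5 CPM against 9.04, 11.4, 8.54, 13.1 and 8.91 CPM (log2 fold change 6.30 ± 0.24, adjusted p = 9.53e-07). The actin bundler LCP1 was at 802, 835 and 1382 CPM against 9.08 to 13.8 CPM (log2 fold change 6.31), and CORO1A, coronin of leukocytes, at 1186, 1309.9 and 1685 CPM against 15.4 to 25.1 CPM (log2 fold change 6.05). The integrin alpha gene itgae.1 had 206, 215 and 316 CPM against 0.284 to 2.38 CPM (log2 fold change 6.98). Profilin, encoded by pfn1, was at 2748, 4663 and 5582 CPM against 58.3 to 94.9 CPM (log2 fold change 5.72), and the Arp2/3 subunit ARPC1B at 1627, 1563 and 3128 CPM against 23.3 to 39.4 CPM (log2 fold change 5.92). ELMO1, an engulfment adaptor that was also abundant in tissue, differed by 1.2 on the log2 scale.

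Of 25 receptors and bridging molecules for engulfment, 9 were called higher and 5 lower (median 0.63), and with edgeR 14 were called higher and 3 lower. Over all genes 16.8% were called higher and 30.7% lower, and with edgeR 4350 and 2988 of 18043. In both settings the share of the list called lower was under that over all genes. On the higher side stood havcr1, a TIM-family receptor for phosphatidylserine on dying cells, with 613, 1009 and 723 CPM against 8.26, 7.33, 5.21, 5.17 and 9.10 CPM (log2 fold change 6.61 ± 0.25, adjusted p = 9.52e-07). The scavenger receptor marco was at 306, 841 and 531 CPM against 3.65 to 11.4 CPM (log2 fold change 6.09) and the mannose receptor mrc1b at 893, 107 and 709 CPM against 6.23 to 10.5 CPM (log2 fold change 5.33). Named after their values were seen, the phosphatidylserine receptor timd4 was at 14.9, 22.4 and 14.3 CPM against 0.421 to 0.698 CPM and the engulfment kinase mertka at 121, 142 and 135 CPM against 6.77 to 12.1 CPM (log2 fold changes 3.54 and 3.65). On the lower side stood ADGRB1 (ENSDARG00000078529), the BAI1 adhesion receptor known from neurons and glia, at 18.7, 101 and 45.5 CPM against 764, 951, 1111, 1219 and 1012 CPM (log2 fold change -4.46 ± 0.46, adjusted p = 6.96e-05). The bridging protein gene MFGE8 (6.55, 1.41 and 3.31 against 29.4 to 51.2 CPM, log2 fold change -3.28) and the fatty acid receptor CD36 (0.327, 22.3 and 4.46 against 35.3 to 46.7 CPM, log2 fold change -2.88) were also called lower and were named after their values were seen. CD36 lost its call with edgeR (-1.41), with DESeq2 (-1.51) and with telencephalon libraries 1, 4 and 5 left out (-2.94). The paralogue mfge8a was not called and spread widely, at 871, 66.5 and 331 CPM against 372 to 469 CPM. MRC1, the other mannose receptor gene, was at 1057, 2.58 and 1013 CPM against 19.5 to 29.0 CPM, and its high values in libraries 1 and 3 were missing in library 2. It was not called with limma on all libraries. It was called higher without library 2 (log2 fold change 5.42), with edgeR (5.18) and with DESeq2 (5.22).

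Complement genes were called higher for 8 of 20 tested members and lower for 6 (median 0.68), beside 16.8% and 30.7% of all genes. The share called lower was thus near that over all genes. All 3 chains of C1q, which tags synapses and debris, were higher: c1qa was at 123, 283 and 181 CPM against 1.53, 1.26, 1.29, 1.81 and 1.75 CPM (log2 fold change 6.21 ± 0.28, adjusted p = 1.42e-06). The chain c1qb was at 291, 638 and 314 CPM against 5.74, 4.39, 2.69, 5.49 and 5.78 CPM (log2 fold change 6.10 ± 0.32, adjusted p = 2.46e-06), and c1qc at 419.8, 812 and 590.4 CPM against 4.08, 3.304, 2.36, 9.24 and 4.98 CPM (log2 fold change 6.77 ± 0.38, adjusted p = 2.86e-06). Library 2 was the highest for each chain, and all 3 exceeded every telencephalon library. Properdin, which stabilizes the alternative convertase and is encoded by cfp, was at 293, 108 and 355 CPM against 7.25 to 14.2 CPM (log2 fold change 4.11). The extracellular chaperone clusterin (clu), known from astroglia, was lower, at 330.4, 197 and 539.6 CPM against 1065, 1642, 1059, 1135 and 1387 CPM (log2 fold change -1.91 ± 0.31, adjusted p = 9.77e-04). The complement inhibitor cd59a, which is also on the oligodendrocyte lineage list, was lower at 5.403, 5.47 and 7.81 CPM against 71.3 to 138 CPM (log2 fold change -3.89).

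In antigen presentation, 29 of 33 members were called higher and 1 lower (median 3.43). The MHC class II gene mhc2dgb was at 372, 56.3 and 699.9 CPM in Mpeg1+ cells and at 0, 0.0601, 0, 0 and 0.0474 CPM in the telencephalon (log2 fold change 7.92 ± 0.70, adjusted p = 2.93e-05), with library 2 the lowest of the sorted libraries. Its neighbour in name, mhc2dga, was at 297, 40.3 and 542 CPM and had no read in any telencephalon library, so that it was at least 9895-fold higher when 3 reads over the 5 telencephalon libraries are taken as the limit. The class II lysosomal protease ctss2.2, a cathepsin S, was at 192, 250.1 and 251 CPM against 0.544, 1.02, 0.322, 0.259 and 0.427 CPM (log2 fold change 7.27 ± 0.24, adjusted p = 8.01e-07). The other invariant chain gene, cd74b, was at 2532, 2909 and 3802 CPM against 23.9 to 38.7 CPM (log2 fold change 6.58). Class I genes were called higher as well: mhc1zba was at 1429, 623 and 1390.4 CPM against 3.36, 5.05, 86.3, 2.71 and 3.03 CPM (log2 fold change 7.05 ± 1.02, adjusted p = 4.69e-04), where telencephalon library 3 stood far above the other 4. MHC genes differ between individual fish and have near-identical copies, so single MHC genes are uncertain. The beta-2-microglobulin gene b2ml was at 1109, 620.2 and 988 CPM against 286 to 354 CPM (log2 fold change 1.47). The single member called lower was rfx5, a factor that binds MHC class II promoters. It was named after its values were seen and was at 16.2, 1.44 and 7.47 CPM against 18.3 to 22.6 CPM (log2 fold change -1.59, adjusted p = 0.0330). It lost this call with edgeR and without any 1 of 7 of the 8 libraries (log2 fold changes -1.72 to -0.83).

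Lysosomal hydrolases and membrane proteins were called higher for 39 of 69 members and lower for 3 (median 1.25), and their summed level was 16718, 13281 and 22807 CPM against 4018 to 4517 CPM. The cathepsins led: ctss2.1 was at 319.8, 289 and 289.7 CPM against 5.403, 3.48, 2.31, 4.201 and 3.75 CPM (log2 fold change 5.99 ± 0.23, adjusted p = 9.52e-07). CTSB, cathepsin B, was at 1128, 1353 and 1363 CPM against 88.7, 64.8, 44.1, 73.2 and 46.2 CPM (log2 fold change 4.36 ± 0.25, adjusted p = 3.19e-06). Prosaposin (PSAP), the precursor of sphingolipid activators and a binding partner of progranulin in mammals, was at 3740.1, 3608 and 6732 CPM against 899, 829, 921, 1004 and 1024 CPM (log2 fold change 2.27 ± 0.22, adjusted p = 5.45e-05). The asparaginyl endopeptidase LGMN was at 1002, 827 and 1640.2 CPM against 181 to 203 CPM (log2 fold change 2.49). Not all cathepsins were higher in sorted cells, since ctsf was at 313, 148 and 177 CPM against 746, 749, 734, 791 and 712 CPM (log2 fold change -1.88 ± 0.23, adjusted p = 1.96e-04), below every telencephalon library. The other 2 members called lower were the genes of TMEM106B, a lysosomal membrane protein linked to granulin-related dementia in humans. They were named after their values were seen: TMEM106B (ENSDARG00000035949) was at 46.2, 4.47 and 41.2 CPM against 88.5 to 99.5 CPM, and TMEM106B (ENSDARG00000101936) at 60.7, 29.3 and 31.4 CPM against 91.9 to 97.5 CPM. The former lost its call with edgeR and the latter after TMM scaling and with edgeR and DESeq2 (log2 fold changes -1.31, -0.84, -0.83 and -0.84), and both lost it with telencephalon libraries 1, 4 and 5 left out. The latter was also under the 2-fold limit after quantile and median-of-ratios scaling (-0.86 and -0.85).

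The granulins themselves went separate ways. grna, the zebrafish gene that microglia are known to use, had a log2 fold change of 6.06 ± 0.35 (adjusted p = 3.20e-06) with the values given above, and none of the telencephalon libraries exceeded 44.8 CPM. The short granulin gene grna.1 was at 90.9, 98.6 and 79.1 CPM against 6.15, 1.32, 0.430, 13.2 and 2.23 CPM (log2 fold change 4.48 ± 0.69, adjusted p = 6.82e-04), while grna.2 was at 21.3, 0 and 0.221 CPM and was not called (adjusted p = 0.293). In contrast, grnb was called lower in Mpeg1+ cells labelled wildtype (log2 fold change -1.99 ± 0.53, adjusted p = 0.0118). Under TMM scaling the log2 fold change of grnb was -1.60, and without library 2 it was -1.24 (adjusted p = 0.00445). With telencephalon libraries 1, 4 and 5 left out its call was lost (log2 fold change -2.05).

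Subunits of the vacuolar ATPase, the proton pump that acidifies lysosomes and synaptic vesicles, were called higher for 4 of 24 members and lower for 11 (median -0.96). This split depended on scaling, because 6 were called lower after TMM scaling and 4 with edgeR. Paralogues of the same subunit went in opposite directions. For the proteolipid subunit, ATP6V0C (ENSDARG00000036577) was at 61.7, 448 and 48.2 CPM against 1013, 1071, 1093, 1004 and 1007 CPM (log2 fold change -3.22 ± 0.64, adjusted p = 0.00263), with library 2 the highest sorted library. Its call was lost with edgeR (-1.79) and with telencephalon libraries 1, 4 and 5 left out (-3.28). The other copy, ATP6V0C (ENSDARG00000057853), named after its values were seen, was at 241, 369.6 and 278 CPM against 119 to 139.6 CPM (log2 fold change 1.18). For the accessory subunit, atp6ap1a was at 37.8, 91.0 and 31.6 CPM against 728, 732, 505, 493 and 614 CPM (log2 fold change -3.63 ± 0.34, adjusted p = 3.93e-05). Its paralogue atp6ap1b, also named after its values were seen, was at 173, 102 and 178 CPM against 34.3 to 44.3 CPM (log2 fold change 1.98). For the a subunit, ATP6V0A1 (ENSDARG00000015174), the form of synaptic vesicles in mammals, was at 8.68, 102 and 16.7 CPM against 479 to 587 CPM (log2 fold change -4.39). TCIRG1, the form of osteoclasts and macrophages, was named after its values were seen and stood at 377, 189 and 416 CPM against 33.0 to 37.7 CPM (log2 fold change 3.09). The small subunit atp6v0e1 was the most different in the higher direction, at 25.9, 40.5 and 51.4 CPM against 1.502 to 1.94 CPM (log2 fold change 3.84), and ATP6AP2 was not called (235, 344 and 334 against 385 to 424 CPM).

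**Figure D3:**
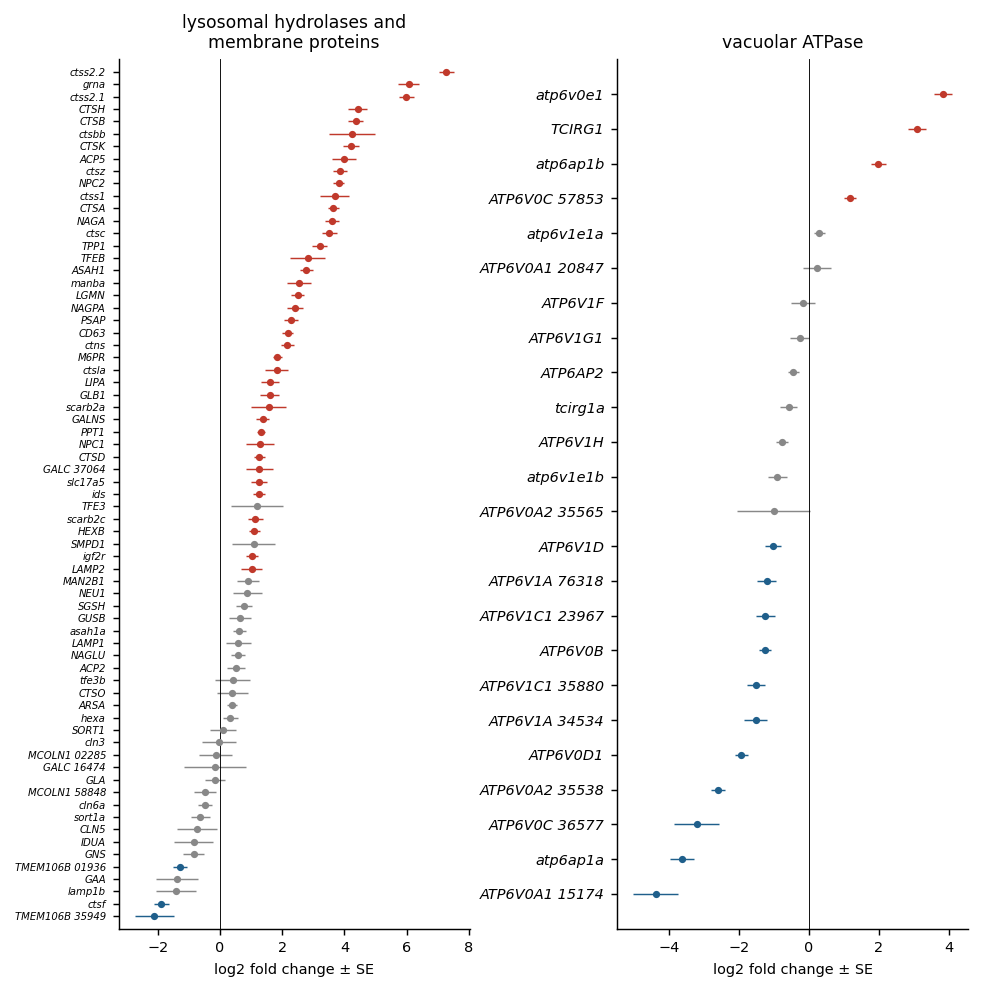
log2 fold change ± standard error of every tested lysosomal member (69, left) and vacuolar ATPase member (24, right), wildtype Mpeg1+ cells against whole telencephalon on log2(CPM + 1), with red for called higher, blue for called lower, grey for not called, and the last 5 digits of the Ensembl identifier after symbols that occur more than once. Most lysosomal members lie to the right of 0, with 39 called higher and 3 lower, whereas the pump subunits lie on both sides of 0 with paralogues of ATP6V0C and of the accessory subunit on opposite sides.

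Genes of lipid transport and storage had 16 of 36 members called higher and 3 lower (median 1.05). CH25H, which makes the oxysterol 25-hydroxycholesterol, was at 186, 141 and 250.1 CPM against 0.272, 0.481, 0.322, 0.517 and 0.237 CPM (log2 fold change 7.11 ± 0.25, adjusted p = 8.01e-07). The apolipoprotein apoc1 named above had a log2 fold change of 6.17. The cholesterol carrier NPC2 was at 487, 812 and 703 CPM against 38.8 to 48.5 CPM (log2 fold change 3.81), and the leukotriene helper ALOX5AP at 111, 119 and 206 CPM against 1.81 to 4.01 CPM (log2 fold change 5.29). By contrast, the cholesterol synthesis gene hmgcs1 was not called and ranged from 3.47 CPM in library 2 to 643 CPM in library 1, around the 39.5 to 105 CPM of the telencephalon.

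The oxidative burst and iron list had 12 of 29 members called higher and 1 lower (median 0.69). Genes of the phagocyte NADPH oxidase were among them: its regulator rac2 was at 206, 364 and 331 CPM against 4.45, 3.42, 2.36, 3.94 and 3.41 CPM (log2 fold change 6.04 ± 0.25, adjusted p = 1.16e-06). The cytosolic subunit ncf1 was at 266, 111 and 314 CPM against 3.24 to 6.14 CPM (log2 fold change 5.18) and the membrane subunit cyba at 120.5, 156 and 177 CPM against 3.49 to 6.98 CPM (log2 fold change 4.76). Of the ferritins, fthl27 was at 1455, 739 and 1482 CPM against 86.5 to 167 CPM (log2 fold change 3.27), while fth1a was at 202, 347 and 273 CPM against 409 to 424 CPM and under the 2-fold limit. Catalase (CAT) was not called, with 233, 131 and 139 against 192 to 257 CPM.

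Purinergic receptors and ion channels, through which microglia sense ATP and regulate their membrane potential, were called higher for 14 of 24 members and lower for 4 (median 1.90). The ATP-gated channel p2rx7 was at 224, 117 and 322 CPM against 7.20, 4.27, 5.32, 6.66 and 6.26 CPM (log2 fold change 4.90 ± 0.33, adjusted p = 6.64e-06), and ENTPD1, the ecto-enzyme CD39 that breaks down extracellular ATP, at 254, 146 and 493 CPM against 7.04 to 10.98 CPM (log2 fold change 4.70). The oxysterol receptor GPR183 (ENSDARG00000010317), whose ligand is made from the product of CH25H, was at 62.4, 77.7 and 108 CPM against 0.860 to 2.85 CPM (log2 fold change 4.83). The potassium channel KCNMA1, known from neurons, was called lower at 15.2, 57.3 and 24.0 CPM against 202 to 274 CPM (log2 fold change -3.06). Leaving out telencephalon libraries 1, 4 and 5 brought the counts of this list to 9 higher and 2 lower. The same step brought the counts over all genes from 3034 and 5543 to 1870 and 2600.

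**Figure D4:**
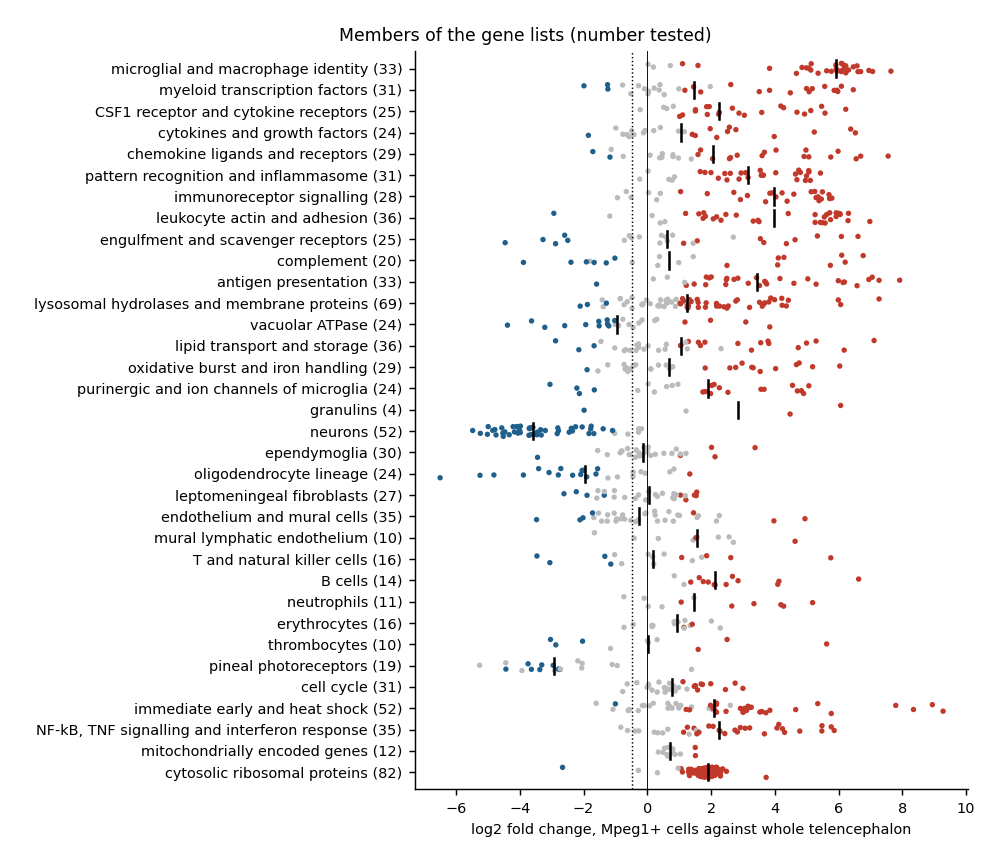
log2 fold change of each tested member of the 34 gene lists (number tested in brackets), wildtype Mpeg1+ cells against whole telencephalon, with red for called higher, blue for called lower and grey for not called. Black bars are list medians and the dotted line is the median of all genes (-0.50): the identity list has the highest median (5.92) and the neuron list the lowest (-3.57).

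Of the 25 genes with the largest differences on the higher side (mean of at least 50 CPM in Mpeg1+ cells, with a symbol), 5 encode chaperones of the heat shock response. hsp70.1 was at 4198, 165 and 3587 CPM against 0.952, 1.68, 1.07, 1.55 and 0.806 CPM (log2 fold change 9.28 ± 0.96, adjusted p = 7.23e-05). hsp70.3 was at 8940.2, 519 and 6295 CPM against 8.33, 8.17, 3.55, 4.72 and 3.37 CPM (log2 fold change 8.94 ± 0.85, adjusted p = 4.57e-05), and the co-chaperone dnajb1b at 2145, 111 and 1547 CPM against 1.29 to 4.03 CPM (log2 fold change 7.79). Library 2 held far less of each than libraries 1 and 3, though more than any telencephalon library. The other 2 were HSPA2 (log2 fold change 9.69) and hsp70l (8.35). Olig2+ cells, which had also been dissociated and sorted, held 8798, 62.2, 7548 and 4824 CPM of hsp70.3, and none of the 5 genes was called between Mpeg1+ and Olig2+ cells. Over the whole list of immediate early and heat shock genes, 29 of 52 were called higher and 1 lower (median 2.09), against 10 higher and 3 lower of 53 in the comparison with Olig2+ cells. The summed level of the list was 60984, 13928 and 50403 CPM in Mpeg1+ cells, 4473 to 6729 CPM in the telencephalon and 5881 to 70173 CPM in Olig2+ cells. The transcription factor egr1, an immediate early gene, was at 8389, 2604 and 9889.7 CPM against 339 to 708 CPM (log2 fold change 3.53) and was also called against Olig2+ cells (2.25). The part of dissociation in these values was not tested.

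Other genes among these 25 included the following. siglec15l, of the sialic acid-binding lectins, was at 259, 97.8 and 412 CPM against 0.161 to 0.601 CPM (log2 fold change 7.31), and plekhf1, a lysosome-associated adaptor, at 259, 276 and 390.1 CPM against 0.645 to 1.202 CPM (log2 fold change 7.27). The membrane-spanning 4-domain gene ms4a17a.10 was at 548, 721 and 904 CPM against 3.01 to 7.63 CPM (log2 fold change 6.97). Several had only a clone-based name: zgc:103700 was at 725, 246 and 1356 CPM against 0 to 0.0680 CPM (log2 fold change 9.24) and si:dkey-30g5.2 at 223, 278 and 280.5 CPM against 0.284 to 1.16 CPM (log2 fold change 7.24). The small nuclear RNA rn7sk, which holds back transcription elongation, was at 139, 4436 and 449 CPM against 0.748 to 1.29 CPM (log2 fold change 8.30). It was most abundant in library 2 and was not called against Olig2+ cells (log2 fold change 1.89, adjusted p = 0.242).

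Neuronal genes were lower in Mpeg1+ cells, with 46 of 52 called lower and 0 higher (median -3.57), although edgeR called 23 of them lower. The vesicle fusion protein gene SNAP25 (ENSDARG00000020609) was at 45.02, 585 and 87.6 CPM against 2501, 2569, 2538, 2382 and 2415 CPM (log2 fold change -4.21 ± 0.69, adjusted p = 9.61e-04). The NMDA receptor subunit gene GRIN1 (ENSDARG00000027828) was at 22.1, 204 and 22.2 CPM against 1617, 1649.7, 1634, 1435 and 1449 CPM (log2 fold change -5.02 ± 0.66, adjusted p = 2.82e-04), and the AMPA receptor subunit GRIA2 (ENSDARG00000052765) at 17.2, 219 and 19.4 CPM against 1105 to 1293 CPM (log2 fold change -4.78). Neuronal RNA was not absent from the sorted libraries. Their summed level over the list was 1087, 6599 and 1293 CPM against 21512 to 23418 CPM, and library 2 held the highest sum of the 3 sorted libraries. The postsynaptic gene NRGN, for example, was at 10.97, 685 and 41.0 CPM against 999 to 1301 CPM (log2 fold change -4.01). Its call was lost without library 3 (-3.64), with edgeR (-1.45), with DESeq2 (-1.56) and with telencephalon libraries 1, 4 and 5 left out (-4.11). Of the 25 genes with the largest differences on the lower side, several encode synaptic or neuronal membrane proteins. Among the 25 were the kinase-anchoring protein SPHKAP (0.655, 0.275 and 1.18 against 98.1 to 117 CPM, log2 fold change -6.01) and the sodium pump subunit atp1a3b (3.77, 79.1 and 1.105 against 412 to 889 CPM, log2 fold change -5.94). The call of atp1a3b was lost with edgeR (-3.67).

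In the oligodendrocyte lineage list, 15 of 24 members were called lower and 1 higher (median -1.95), with 10 lower and 3 higher in edgeR, and 8 lower and 0 higher with telencephalon libraries 1, 4 and 5 left out. The myelin genes plp1b (5.403, 7.94 and 5.08 against 133 to 268 CPM, log2 fold change -4.82) and mbpa (35.4, 124 and 163 against 962, 495, 823, 648 and 1060.1 CPM, log2 fold change -3.08) were both called lower, mbpa being lowest in library 1. OLIG2, the factor of the lineage that is also used by progenitors, was not called, with 29.8, 29.3 and 22.6 CPM against 31.5, 28.7, 33.0, 29.6 and 33.6 CPM (adjusted p = 0.337). Against Olig2+ cells, 3 of 20 members were called lower. The Olig2+ libraries themselves held little of this list, with a summed level of 396 to 609 CPM. The telencephalon libraries held 1260 to 2182 CPM and the Mpeg1+ libraries 295 to 380 CPM.

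Genes known from other non-neuronal cells were also read in the sorted libraries. Whether Mpeg1+ cells or other cells held this RNA was not tested. The leptomeningeal gene epd, a secreted ependymin of the fibroblasts that cover the brain, was among the most abundant, at 22275, 22613 and 15170.3 CPM against 7329.6, 4256, 9105, 7320.3 and 8590.5 CPM (log2 fold change 1.47 ± 0.28, adjusted p = 0.00205), above every telencephalon library. In the list of leptomeningeal fibroblasts, 5 of 27 were called higher and 4 lower (median 0.04), and without library 2 12 were called higher and 4 lower. After TMM scaling and with edgeR 10 were called higher, and with telencephalon libraries 1, 4 and 5 left out 2 were. The sulfate transporter slc13a4 was not called (111, 71.9 and 82.6 against 20.4 to 61.6 CPM), and neither was the copper protein gene cp (1786, 679 and 1186 against 371 to 873 CPM), although both were called higher after TMM scaling (log2 fold changes 1.29 and 1.25). The Mpeg1+ libraries labelled mutant held 384 to 441 CPM of this list, against 25234, 23745 and 17312 CPM in those labelled wildtype. Most of the sum in those labelled wildtype was epd alone, at the values given above, so it is not a level of the list as a whole.

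For ependymoglia, the radial glia of the zebrafish telencephalon, 4 of 30 members were called higher and 1 lower. The median was -0.13 on CPM and 0.31 after TMM scaling, 0.73 with edgeR and 0.63 without library 2, so that its sign depended on the processing. Without library 2, 8 members were called higher, and with edgeR 9 were. The glutamate transporter gene SLC1A3 was at 280.3, 82.8 and 288 CPM against 12.1 to 27.5 CPM (log2 fold change 3.38), while the closely related slc1a2b was at 6137, 341 and 2577 CPM against 1947 to 2502 CPM and not called. Glutamine synthetase, glula, was at 9299, 3606 and 6395 CPM against 2256, 2677, 3452, 2992 and 3417 CPM (log2 fold change 1.03 ± 0.30, adjusted p = 0.0182). The call of glula was lost without library 1 (0.72), library 3 (0.99) or telencephalon library 1 (0.94), and its sign changed after quantile normalisation (-0.07). GFAP, an intermediate filament of glia, was at 92.5, 0.585 and 89.3 CPM against 42.9, 40.2, 43.7, 44.1 and 39.0 CPM and was not called (adjusted p = 0.572). It was nearly missing from library 2, without which it was called higher (log2 fold change 1.1).

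Endothelial and mural cell genes gave 3 called higher and 4 lower of 35. Their median was -0.27 on CPM, 0.79 with edgeR and 0.84 without library 2, and 17 members were called higher without library 2. With edgeR 9 and with DESeq2 11 members were called higher. Those called higher with limma on all libraries were pecam1a, an adhesion molecule that leukocytes share, fli1rs and FLI1, 2 genes of the ETS factor Fli1. Of these, pecam1a was at 321, 443 and 681 CPM against 11.095 to 16.8 CPM (log2 fold change 4.94) and fli1rs at 202, 100.4 and 202 CPM against 7.87 to 11.05 CPM (log2 fold change 3.97). FLI1, named after its values were seen, had a log2 fold change of 1.45. The VEGF receptor gene kdrl, an endothelial marker, was at 52.2, 0.138 and 65.0 CPM against 47.8, 37.9, 42.1, 46.3 and 51.9 CPM and was not called (adjusted p = 0.299). Genes of mural lymphatic endothelial cells, scavenger cells of the zebrafish meninges, followed the same pattern across libraries, with a summed level of 2324, 115 and 1999.6 CPM against 92.6 to 118 CPM. MRC1 and stab1, which are also on the engulfment list, made up most of this sum in libraries 1 and 3. Of the 10 genes of this list, 2 were called higher with limma on all libraries and 8 without library 2. With edgeR and with DESeq2 7 were called higher. The scavenger receptor stab1, which macrophages also use, was at 588, 85.8 and 389.5 CPM against 6.49 to 15.8 CPM (log2 fold change 4.63). lyve1b was at 118, 0.206 and 118 CPM against 2.52 to 4.04 CPM (adjusted p = 0.146 with limma). It was called higher without library 2 (log2 fold change 4.77), after quantile scaling (3.21), with edgeR (4.83) and with DESeq2 (4.87).

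**Figure D5:**
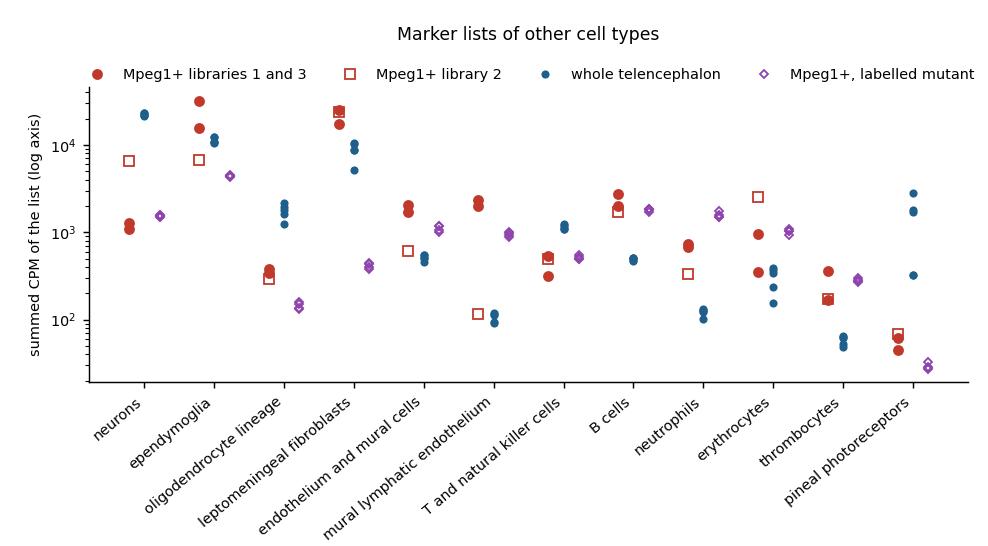
Summed CPM (log axis) of the marker lists of 12 other cell types in single libraries: 3 Mpeg1+ libraries labelled wildtype in red (library 2 as open squares), 5 young telencephalon libraries labelled wildtype in blue and 4 Mpeg1+ libraries labelled mutant in purple. Neuronal, oligodendrocyte and pineal sums are lower in Mpeg1+ cells than in the telencephalon. Leptomeningeal sums are higher in Mpeg1+ cells labelled wildtype, where epd alone makes up most of them, and far lower in those labelled mutant. Library 2 departs from libraries 1 and 3 for neurons and mural lymphatic endothelium.

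Among blood lineages, the B cell list had 12 of 14 members called higher and 0 lower (median 2.11). The median was 6.01 with edgeR and 6.05 with DESeq2, and 8 of 15 members were called higher with telencephalon libraries 1, 4 and 5 left out. The immunoglobulin heavy chain gene ighm was at 254, 20.8 and 262 CPM against 0.442, 0.240, 0, 0.0646 and 0.0474 CPM (log2 fold change 6.63 ± 0.77, adjusted p = 1.39e-04), with library 2 well below the other 2. The B cell lectin cd22 was at 32.6, 17.8 and 49.4 CPM against 0.430 to 1.099 CPM (log2 fold change 4.13), and the antigen receptor chain cd79a at 3.27, 3.06 and 4.64 CPM against 0 to 0.0948 CPM (log2 fold change 2.12). PAX5 was too scarce to be tested in this contrast. XBP1, an abundant member with a general role in secretion, was at 1185, 1351 and 1819 CPM against 365 to 393 CPM. For T and natural killer cells, 4 of 16 were called higher and 4 lower. The T cell kinase gene lck was at 2.29, 7.26 and 4.197 CPM against 0.541 to 2.26 CPM (log2 fold change 1.08, adjusted p = 0.0369) and lost its call without any 1 of 6 of the 8 libraries (log2 fold changes 0.74 to 1.14), whereas ZAP70 was not called (5.403, 0 and 1.95 against 0.776 to 2.005 CPM). The chemokine receptor ccr9a was at 366, 55.7 and 146 CPM against 1.18 to 2.33 CPM (log2 fold change 5.75), and those called lower included EOMES (ENSDARG00000006640) and bcl11ba, which forebrain neurons also express. Neutrophil genes were called higher for 6 of 11 and lower for 0, and of these ncf1 and CSF3R (35.9, 18.7 and 38.11 against 0.322 to 0.806 CPM, log2 fold change 4.27) are shared with macrophages. The neutrophil genes lyz and cxcr1 were not among the genes listed for both groups. Erythrocyte genes gave 2 calls higher and 0 lower of 16 on CPM, but 5 and 7 higher after TMM scaling and with edgeR, and the globin gene hbba1 ranged from 84.8 CPM in library 1 to 1411 CPM in library 2 against 49.0 to 144 CPM. hbba1 was not called with limma on CPM of all libraries. It was called higher after TMM scaling or without library 1 (log2 fold changes 2.46 and 3.05), with edgeR (3.36) and with DESeq2 (3.28). Thrombocyte genes were called higher for 3 and lower for 3 of 10.

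Pineal photoreceptor genes varied among the telencephalon libraries themselves. The phototransduction gene GNAT1 was at 290.3, 1.62, 1.24, 342 and 563 CPM in the 5 telencephalon libraries and at 2.95, 0.413 and 1.25 CPM in Mpeg1+ cells. Libraries 1, 4 and 5 of the telencephalon held it in amounts that libraries 2 and 3 did not. The melatonin synthesis gene ASMT had the same pattern, with 288, 1.68, 1.02, 276 and 497 CPM against 0.655, 0.0688 and 0 CPM. Neither was called with limma on all libraries, and each was called lower without telencephalon library 2 (-5.51 for GNAT1 and -6.29 for ASMT on the log2 scale) or library 3 (-5.57 and -6.39). Both were also called lower with edgeR (-7.08 and -10.27) and with DESeq2 (-6.95 and -9.59). Of 19 members, 8 were called lower in Mpeg1+ cells and 0 higher, but 2 were called lower once telencephalon libraries 1, 4 and 5 were left out, and 4 without Mpeg1+ library 2.

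Genes of the cell cycle were called higher for 11 of 31 members and lower for 0 (median 0.78), and for 19 after TMM scaling or with edgeR but 6 with telencephalon libraries 1, 4 and 5 left out. The chromatin protein HMGB2 was at 293, 463 and 376 CPM against 58.5 to 74.1 CPM (log2 fold change 2.45), the cyclin gene ccnd1 at 204, 257 and 206 CPM against 28.2 to 36.5 CPM (log2 fold change 2.75), and the nucleotide reductase RRM2 at 36.2, 9.60 and 23.1 CPM against 0.0474 to 8.98 CPM (log2 fold change 3.0, not called without library 1 or 3 at 2.59 and 2.90). The replication clamp PCNA was not called (101, 72.9 and 125 against 72.4 to 87.8 CPM, adjusted p = 0.191). Cytosolic ribosomal protein genes were called higher for 78 of 82 members and lower for 1 (median 1.91), with a summed level of 10879, 25841 and 15411 CPM against 4403 to 4863 CPM that was highest in library 2. RPS2, for instance, was at 751, 1598 and 1095 CPM against 202 to 236 CPM (log2 fold change 2.29). Of 12 mitochondrially encoded genes, 2 were called higher, MT-CO2 and MT-CO3. MT-CO2 was at 3069, 21270.3 and 3918 CPM against 2076 to 2537 CPM (log2 fold change 1.5). Its call was lost without library 2 (0.63) and without any 1 of the telencephalon libraries (1.47 to 1.55). Without library 2 none of the 12 was called and the median of the list changed from 0.72 to -0.11.

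Against wildtype Olig2+ cells, which share the sort and the small RNA input but not the sorted population, 2651 genes (14.4%) were called higher in Mpeg1+ cells and 4273 (23.2%) lower of 18400 tested. Of these calls 38.3% were on the higher side, 46.7% after TMM scaling and 57.5% with edgeR. The comparison uses the same 3 Mpeg1+ libraries, so its values are given beside those above and are no independent reading. Of the identity list, 29 of 34 members were called higher and 0 lower (median 4.70). The 5 markers had log2 fold changes of 4.68 for MPEG1 (ENSDARG00000055290), 4.16 for apoeb, 4.47 for csf1ra, 5.17 for cd74a and 4.78 for spi1b. In the lysosomal list 41 of 69 were higher and 1 lower, in antigen presentation 27 of 33 and 0, and in complement 10 of 20 and 3. Clusterin, lower than in the telencephalon, was not called against Olig2+ cells (119.9 to 251 CPM, log2 fold change 0.91). The neuron list had 44 of 52 members called lower and the vacuolar ATPase list 8 of 24 lower with 4 higher. Summed over the neuron list, the Olig2+ libraries held 20682 to 23461 CPM, near the 21512 to 23418 CPM of the telencephalon libraries. The list of ribosomal protein genes had 53 of 82 called higher, and the gene epd was higher than in Olig2+ cells (72.4 to 3718 CPM, log2 fold change 4.71).

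In the libraries labelled mutant, 3616 genes (20.3%) were called higher in Mpeg1+ cells than in telencephalon and 7795 (43.7%) lower of 17856 tested. Of these calls 31.7% were on the higher side, 48.7% after TMM scaling and 49.99% with edgeR. Mpeg1+ libraries 1 and 2 labelled mutant differed by a chi-square of 1.81 per gene and libraries 3 and 4 by 10.3, against 29.9 to 46.9 for the other pairs. With each of these pairs averaged to 1 library, 3414 genes were called higher and 7825 lower. Over 17325 genes tested in both contrasts, 2360 genes were called higher in both, which was 82.5% of the 2861 called in the libraries labelled wildtype and 71.0% of the 3326 called in those labelled mutant. On the lower side 4694 genes were shared, 86.1% of 5449 and 60.7% of 7737. Opposite calls were made for 52 of the genes higher and 39 of the genes lower in the libraries labelled wildtype. The identity list was called higher for 33 of 35 members and lower for 1 (median 5.57). The lysosomal list was called higher for 39 of 69 with 10 lower, and antigen presentation for 25 of 32 with 0 lower. MPEG1 (ENSDARG00000055290) had a log2 fold change of 5.95, apoeb of 5.22, cd74a of 6.61 and spi1b of 6.96. For c1qa, c1qb and c1qc the values were 6.15, 6.91 and 6.62, and for PSAP and CTSB 2.21 and 3.65. Pattern recognition genes were called higher for 29 of 31 and lower for 1. In the complement, engulfment and oxidative burst lists, the shares called higher exceeded the 20.3% over all genes. Their shares called lower did not exceed the 43.7% over all genes. Complement had 9 of 21 members called higher and 9 lower (median -0.48), and engulfment 11 of 25 and 10 (median -0.10). The oxidative burst and iron list had 12 of 27 called higher and 9 lower (median 0.08). For lists of other cell types, leptomeningeal genes were called higher for 4 and lower for 20 of 27 in the libraries labelled mutant, where epd was at 84.1 to 107 CPM against 9149 to 11598 CPM in the telencephalon (log2 fold change -6.72). Ependymoglial genes were called lower for 24 of 31, and heat shock and immediate early genes higher for 44 of 53, with a summed level of 150341 to 165563 CPM. Granulin grnb, lower in Mpeg1+ cells than in the telencephalon in the libraries labelled wildtype, was higher under the mutant label (log2 fold change 3.81 ± 0.12, adjusted p = 3.34e-10). Tested as an interaction of label and cell population, the log2 fold changes of the libraries labelled wildtype exceeded those of the libraries labelled mutant by 8.20 ± 0.28 for epd (adjusted p = 1.23e-11), whereas for grnb the difference was -5.80 ± 0.53 (adjusted p = 1.39e-06). The grnb values of the telencephalon under the 2 labels, given above, enter this difference too. Except where pairs were averaged, the Mpeg1+ libraries labelled mutant entered these tests as separate replicates. Since pairs of them were much alike, the standard errors and p-values may be too small.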

How the data were processed

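RNA was sequenced from sorted Mpeg1+ cells, sorted Olig2+ cells and whole telencephalon. The authors aligned reads to GRCz10 with STAR and divided gene counts by DESeq2 (release 3.9) size factors, separately for each of 3 deposited tables, so the deposited values are a normalised signal. The read counter and annotation release are not given in the sources used here. SMART-Seq amplified reads carry no molecular identifiers.

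Every value was a whole multiple of the value of 1 read in its library (100% within a tolerance of 1e-06), so whole reads were recovered. Each library was rescaled to CPM of its own sum, which removes the size factors of the separate tables. Genes with a mean of at least 1 CPM were compared on log2(CPM + 1) with limma 3.58.1 (trend and robust options, R 4.3.3) within the groups of each contrast. The step across many genes was tested on simulated counts in which only a small share of genes was changed. Since that setting differs from these data, it cannot decide how scaling affects the calls. Alternatives were edgeR 4.0.16 and DESeq2 1.42.0 on recovered reads, other scalings, pseudocounts, filters, a replicate block and omitted libraries. Counts of list members without library 2 or under other scalings, and the interaction of label and cell population, were added after seeing the data.

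Of the 21883 genes in both tables, 20426 had a symbol, from a gene table or from the study's own tables. Of 1193 names in 34 lists, 1091 were matched. The members and lists were chosen with earlier results of these data known. The text names the 25 largest called changes per direction with a mean of at least 50 CPM in the group where they are higher, and per list the 5 most abundant members and 3 largest changes with at least 10 CPM, beside genes said to be named after their values were seen. Some genes that this rule names are not reported here. The study's methods give each sorted replicate as a pool of 3 telencephali, and p-values measure the spread between the libraries of a group. Promoter and protein sequences were not used here.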

Additional observations from a re-analysis of the deposited data

Results flagged for a closer look

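Among the 5 young wildtype telencephalon libraries, 10 of the 159 named genes examined had a library far from the other 4 by Dixon's test, which chance gives in about 1 of 20 groups. Library 4 was the highest for the inflammatory cytokines il1b (0.776 CPM) and tnfb (0.905 CPM). Library 3 was the lowest for the mannose receptor mrc1b (6.23 CPM) and for properdin, cfp (7.25 CPM), and the highest for the class I gene mhc1zba (86.3 CPM). Library 1 was the highest for the bridging protein mfge8a (469 CPM) and for the proton pump subunit atp6ap1b (44.3 CPM). Library 2 was the lowest for the endopeptidase LGMN (181 CPM), the cholesterol carrier NPC2 (38.8 CPM) and the sulfate transporter slc13a4 (20.4 CPM). All of these values are on the telencephalon side of the contrast, and none of them reached the level of a Mpeg1+ library for the called genes among them.

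The contrast of Mpeg1+ cells with telencephalon was compared between the libraries labelled wildtype and labelled mutant for 29 defining genes, by an interaction term in limma with adjustment over all genes. Of these, 12 differed past the threshold. The Mpeg1+ libraries labelled mutant entered as separate replicates although pairs of them were much alike, so the p-values may be too small. The values that follow are log2 fold changes of the libraries labelled wildtype minus those of the libraries labelled mutant. The leptomeningeal genes epd and slc13a4 were relatively higher in the libraries labelled wildtype, by 8.20 and 6.602. Of the endothelial genes cdh5 was higher there by 2.98, whereas kdrl (2.39, adjusted p = 0.172) did not pass. So were the glial gene fabp7a (2.91), the myelin gene mbpa (2.54), the lineage factor OLIG2 (2.52) and the T cell kinase lck (2.12). On the other side were csf1ra at -2.21, grnb at -5.80 and grna.2 at -3.45, and the B cell genes cd79a at -1.51 and PAX5 at -1.79. PAX5 was too scarce to be tested in the contrast labelled wildtype alone, and lck in that labelled mutant alone. Library 2 is 1 of 3 in the group labelled wildtype and held the lowest csf1ra and grnb values there. For grnb the telencephalon libraries differed as well, with far lower values under the mutant label, as given above. The parts of cell composition, of library 2 and of the labels in these differences were not tested.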

How the results depend on the processing

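The numbers of genes called in Mpeg1+ cells against telencephalon (3034 higher and 5543 lower) moved by over 1.5 times under some settings. With a filter of 10 CPM 1773 genes were called higher, and without telencephalon libraries 1, 4 and 5, 1870 were called higher and 2600 lower. DESeq2 called 3678 lower and edgeR 2988, and with a threshold of 4-fold 1731 were higher and 2858 lower. Leaving out 1 library at a time gave 2770 to 3755 higher and 5085 to 6155 lower. Against Olig2+ cells, 1743 were higher with a filter of 10 CPM, 2282 lower with edgeR, and 1647 higher and 2665 lower at 4-fold, and leaving out 1 library gave 2143 to 3867 higher and 3330 to 4702 lower. In the libraries labelled mutant, 5428 were higher with edgeR, 2098 higher with a filter of 10 CPM, and 2073 higher and 4125 lower at 4-fold. The remaining 115 of 130 alternative counts stayed within 1.5 times. Of 160 named genes, 128 kept their call and direction under every alternative tried. Among genes called in either setting, signs turned for glula after quantile normalisation (-0.0728) and for GFAP without Mpeg1+ library 2 (leaving out 1 library gave -1.843 to 1.098), and 11 genes called in neither setting also turned sign, GFAP (with edgeR and DESeq2) and CXCL12 among them. With telencephalon libraries 1, 4 and 5 left out 17 named genes lost their call, with edgeR 10 and with DESeq2 6, and without those 3 telencephalon libraries the lists of neurons, vacuolar ATPase and complement had 27, 6 and 3 members called lower. Of 34 list medians, 33 were higher with edgeR and 33 with DESeq2, for example 5.15 for chemokines with edgeR against 2.04. Shifts in either direction were over 1 SD between Mpeg1+ libraries for 22 and 21. Among these was the pineal median, which fell from -2.92 to -4.97 with edgeR and to -4.83 with DESeq2. The median of T and natural killer cell genes turned from 0.18 to -2.20 with a filter of 10 CPM, which keeps fewer of its genes. The cause of the other shifts was not tested. The correlations of same-numbered deviations were 0.05, 0.12 and -0.03. Without those of differently numbered libraries beside them, they do not decide whether replicate numbers pair the libraries. A replicate block gave 2383 higher and 4078 lower, and 7 named genes lost their call. Mpeg1+ library 1 was the shallowest of the 8, at 6107892 reads against 15471586 to 29426822 for the others.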
